A study of Homo sapiens and Mus musculus with 7 samples.

Results

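The genes described here are 40 genes of the unfolded protein response and the integrated stress response. They were chosen by name, with earlier results of these data known. A probe set counted for a gene when its only annotated symbol was that of the gene. In mouse these genes were looked for by the same symbol, without regard to case. The human arrays held 39 of them, on 84 probe sets, among 19775 genes with a probe set of their own. The mouse arrays held all 40, on 97 probe sets, among 18193 genes. SYVN1 had no probe set of its own in human, and WARS1 was found in mouse only under its older symbol Wars, so 38 genes were in both tables by their current symbol and 39 with the older symbol included. By role, 18 genes act in protein folding and degradation at the endoplasmic reticulum (ER), 8 are sensors or transcription factors, 10 serve amino acid supply and 4 are effectors of the factor ATF4.

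The arrays measured total RNA from cells with FAS knockdown or tissue with Fas knockout, and from their controls. Fas (CD95) is a death receptor of the cell surface. HepG2, a liver cancer cell line, was studied with stable FAS knockdown by the hairpin shRNA6 and with pLKO, a lentiviral hairpin vector, as its control. HeyA8, an ovarian cancer cell line, was studied with stable knockdown by either of the hairpins shRNA4 and shRNA6 and with a pLKO control of its own. Liver of a Fas knockout mouse was set against wild-type liver, both C57/BL6, male and 2 months old. The genotype labels call the hairpin lines knock-outs, while the sample descriptions call them knockdowns, the word used here. For a line, whether it was 1 clone, and for a liver array, how many mice stand behind it and which Fas allele the mice carried, the sources used here do not say. Each of the 7 groups had 1 array, so a difference between an array and its control has no replicate check and no p-value. Nothing in the labels says that arrays of 1 cell line came from separate cultures, so p-values from the human arrays fitted together measure no more than the spread between these samples and may reflect technical variation.

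FAS was below the level of its own control on all knockdown arrays, and Fas in the knockout liver. Its signal was 1184 with shRNA4 and 856 with shRNA6 in HeyA8 cells, against 2104 in the HeyA8 control, and 631 with shRNA6 in HepG2 cells, against 1087 in the HepG2 control. Mouse Fas gave 169 in knockout liver and 560 in wild-type liver. Hepatocyte markers matched the labels, with 6 of 6 above the array median on both HepG2 arrays and at most 1 of 6 on the HeyA8 arrays, and 5 of 5 on both liver arrays. Markers of mesenchymal-type cells were above the median at 2 and 3 of 5 on the HepG2 arrays and at 5 of 5 on each HeyA8 array. The ovarian epithelial markers PAX8 and WT1 were above the median in both lines and MUC16 in neither. Of 11 markers of other liver cells 8 were above the median in both livers, with a summed signal of 8927 in knockout liver and 10844 in wild-type liver. In tissue, fewer cells of a type and less RNA per cell cannot be told apart.

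The unfolded protein response is the reaction of a cell to misfolded proteins in the ER. The sensor IRE1 (ERN1) splices the mRNA of XBP1, and ATF6 is cut in the Golgi to release a transcription factor, and both factors raise ER chaperones and the machinery that removes misfolded proteins. PERK and other kinases that sense amino acid shortage, heme shortage or viral RNA phosphorylate eIF2 alpha, which slows translation in general and favours translation of ATF4, the factor that raises amino acid transporters, amino acid synthesis and genes such as DDIT3, TRIB3 and CHAC1. Much of this control acts on splicing, cleavage and translation, which an array of mRNA levels does not read. Hepatocytes secrete large amounts of protein and depend on this system.

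The promoters of these genes carry short elements that the factors are known to bind. They were searched for by their letters, on both strands, in RefSeq promoters of GRCh38.p14, from 250 bases before to 50 bases after the start of each gene. Of the 40 genes 36 had a promoter in the table, and PDIA3, PSPH, SHMT2 and SLC7A11 had none there. The ER stress element, spelled CCAAT, then 9 bases of any kind, then CCACG, was in 27 of 35116 promoters (0.0769%), those of 25 of 27305 genes (0.0916%), and in those of 7 of the 36 genes (19.4%). Those 7 were HSPA5, HSP90B1, CALR, CANX, PDIA6, CRELD2 and the factor gene XBP1, so 6 of 17 ER folding genes (35.3%) held it and 0 of 7 amino acid genes. With a share of 0.0916% over all genes, 0 of 7 amino acid genes is near the background. The genes were chosen by name, so these counts describe the set. The windows are shown because this element was found in ER folding genes and XBP1. Each is written along the strand of its gene with the element in capitals, and an element on the opposite strand appears as its reverse complement.
HSPA5 (chr9:125241376-125241424, minus strand): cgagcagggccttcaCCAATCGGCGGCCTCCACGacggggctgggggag
HSP90B1 (chr12:103930201-103930249, plus strand): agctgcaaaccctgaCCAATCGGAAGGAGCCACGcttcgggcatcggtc
HSP90B1 (chr12:103930306-103930354, plus strand): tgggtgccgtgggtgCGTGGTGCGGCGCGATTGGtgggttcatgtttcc
CALR (chr19:12938369-12938417, plus strand): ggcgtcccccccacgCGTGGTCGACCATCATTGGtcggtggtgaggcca
CANX (chr5:179698763-179698811, plus strand): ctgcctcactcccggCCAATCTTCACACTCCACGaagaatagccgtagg
PDIA6 (chr2:10812838-10812886, minus strand): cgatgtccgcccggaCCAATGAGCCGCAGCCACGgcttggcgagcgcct
CRELD2 (chr22:49918539-49918587, plus strand): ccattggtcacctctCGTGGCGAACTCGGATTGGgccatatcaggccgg
XBP1 (chr22:28800588-28800636, minus strand): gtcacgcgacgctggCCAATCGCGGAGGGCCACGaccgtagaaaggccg

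The element that ATF4 binds together with C/EBP factors, spelled TGATGNAA, was in the promoters of 1217 of the 27305 genes (4.46%) and in those of ASNS, SLC3A2, CEBPG, CHAC1 and HERPUD1. The shorter element spelled TGACGTGG, bound by XBP1 and ATF6, was in those of 253 genes (0.927%) and among these genes in that of HYOU1. The following windows are shown for the genes whose values are given in full below, with the ATF4 element in capitals. A match describes the letters of a window and is not evidence of binding in these cells.
ASNS (chr7:97872454-97872491, minus strand): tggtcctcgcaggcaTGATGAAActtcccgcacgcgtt
CHAC1 (chr15:40953247-40953284, plus strand): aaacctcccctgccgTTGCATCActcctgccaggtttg
HERPUD1 (chr16:56931951-56931988, plus strand): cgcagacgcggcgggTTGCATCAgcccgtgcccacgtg

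The ER folding and degradation genes were nearly level between FAS knockdown and control in both cell lines. None of the 17 measured was 2-fold from its control in any of the 3 human comparisons. Their median log2 ratio was 0.07 with shRNA4 and 0.02 with shRNA6 in HeyA8 cells and -0.01 with shRNA6 in HepG2 cells, beside medians of 0.03, 0.01 and -0.01 over all genes kept. None of these ER medians kept its sign throughout: with the mean of all probe sets they were -0.02 with shRNA4 and -0.01 with shRNA6 in HeyA8 cells, and with quantile normalization -0.06 with shRNA6 in HeyA8 cells and 0.04 in HepG2 cells. Ratios are of signal plus a pseudocount of 12.6 in human and 20.5 in mouse, which makes the ratios of dim genes smaller. Genes were kept where 1 compared array or more exceeded the median of that array, and are called bright where 1 or more exceeded its 75th percentile.

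HSPA5, which encodes BiP, the main Hsp70 chaperone of the ER and the usual readout of ER stress, had signals of 24372 with shRNA6 in HepG2 cells, against 24688 in the HepG2 control. In HeyA8 cells it had 18551 with shRNA4 and 18847 with shRNA6, against 18868 in the HeyA8 control. The log2 ratios were -0.02 in HepG2 and -0.02 and -0.00 in HeyA8, and its other probe set gave -0.18, -0.26 and -0.27. HERPUD1, a scaffold of the complex that moves misfolded proteins out of the ER, had 7721 with shRNA6 in HepG2 cells, against 7521 in the control, and 5366 and 4864 with shRNA4 and shRNA6 in HeyA8 cells, against 4804 in the control. HERPUD1 was thus a little higher on each knockdown array, by log2 ratios of 0.04, 0.16 and 0.02.

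The widest ratio among the ER genes belonged to SDF2L1, an ER protein found in chaperone complexes. Its signal was 747 with shRNA4 and 601 with shRNA6 in HeyA8 cells, against 461 in the control, log2 ratios of 0.68 and 0.37. In HepG2 cells it was level, at 3048 with shRNA6 and 3095 in the control. CRELD2, an ER-resident protein with roles in disulfide chemistry, went the same way in HeyA8 cells, at 1158 with shRNA4 and 868 with shRNA6, against 771 in the control, and was level in HepG2 cells, at 3902 with shRNA6 and 3821 in the control. PDIA4, a disulfide isomerase, was lower on every knockdown array, at 9487 with shRNA6 in HepG2 cells against 10592 in the control, and at 1644 and 1705 with shRNA4 and shRNA6 in HeyA8 cells against 1846 in the control, log2 ratios of -0.16, -0.17 and -0.11. Its other probe set gave 0.05 with shRNA6 in HeyA8 cells.

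In the probe sets that represent them, the other ER genes stayed between log2 ratios of -0.39 and 0.46 in the human comparisons. Both ends of that range belonged to CALR, the lectin chaperone calreticulin, at 0.46 and 0.22 with shRNA4 and shRNA6 in HeyA8 cells and -0.39 in HepG2 cells. The probe set that represents it was dim, between 205 and 567, and its brighter probe sets, marked as cross-hybridising, gave at least 0.10 in HeyA8 with shRNA4 and at most 0.01 in HepG2. CANX, the membrane-bound partner of CALR, lay between -0.07 and 0.02 in the probe set that represents it. Its other probe sets above the median gave between -0.42 and -0.29 with shRNA4 and between -0.14 and 0.30 in HepG2 cells. Of the disulfide isomerases PDIA3 was at 0.37 and 0.38 in HeyA8 cells and -0.06 in HepG2 cells, and PDIA6 at -0.25, 0.09 and -0.01. Other PDIA6 probe sets gave between -0.60 and -0.43 with shRNA4. HSP90B1, the ER form of Hsp90, lay between -0.07 and 0.07, while its other probe set gave -0.25 and -0.44 with shRNA4 and shRNA6 in HeyA8 cells and -0.14 in HepG2 cells. HYOU1, the exchange factor of BiP, was at 0.08, 0.40 and -0.07, and MANF, a small ER protein that is secreted under stress, at -0.18, -0.05 and 0.13.

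Among the co-chaperones of BiP, DNAJB9 was at -0.05, -0.35 and 0.27 with shRNA4 and shRNA6 in HeyA8 cells and shRNA6 in HepG2 cells, DNAJB11 at 0.16, 0.03 and 0.07, and DNAJC3, which also inhibits PERK, at 0.06, -0.07 and 0.18. The degradation genes SEL1L, the adaptor of the ubiquitin ligase SYVN1, and EDEM1, which recognises trimmed sugars on misfolded proteins, were at 0.20, -0.21 and 0.04 and at -0.12, -0.24 and -0.03. Signs often differed between the hairpins or between the lines, and between probe sets: with shRNA6 in HeyA8 cells those of DNAJB9 ran from -0.92 to 0.24 and those of SEL1L from -0.96 to 0.57.

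**Figure D1:**
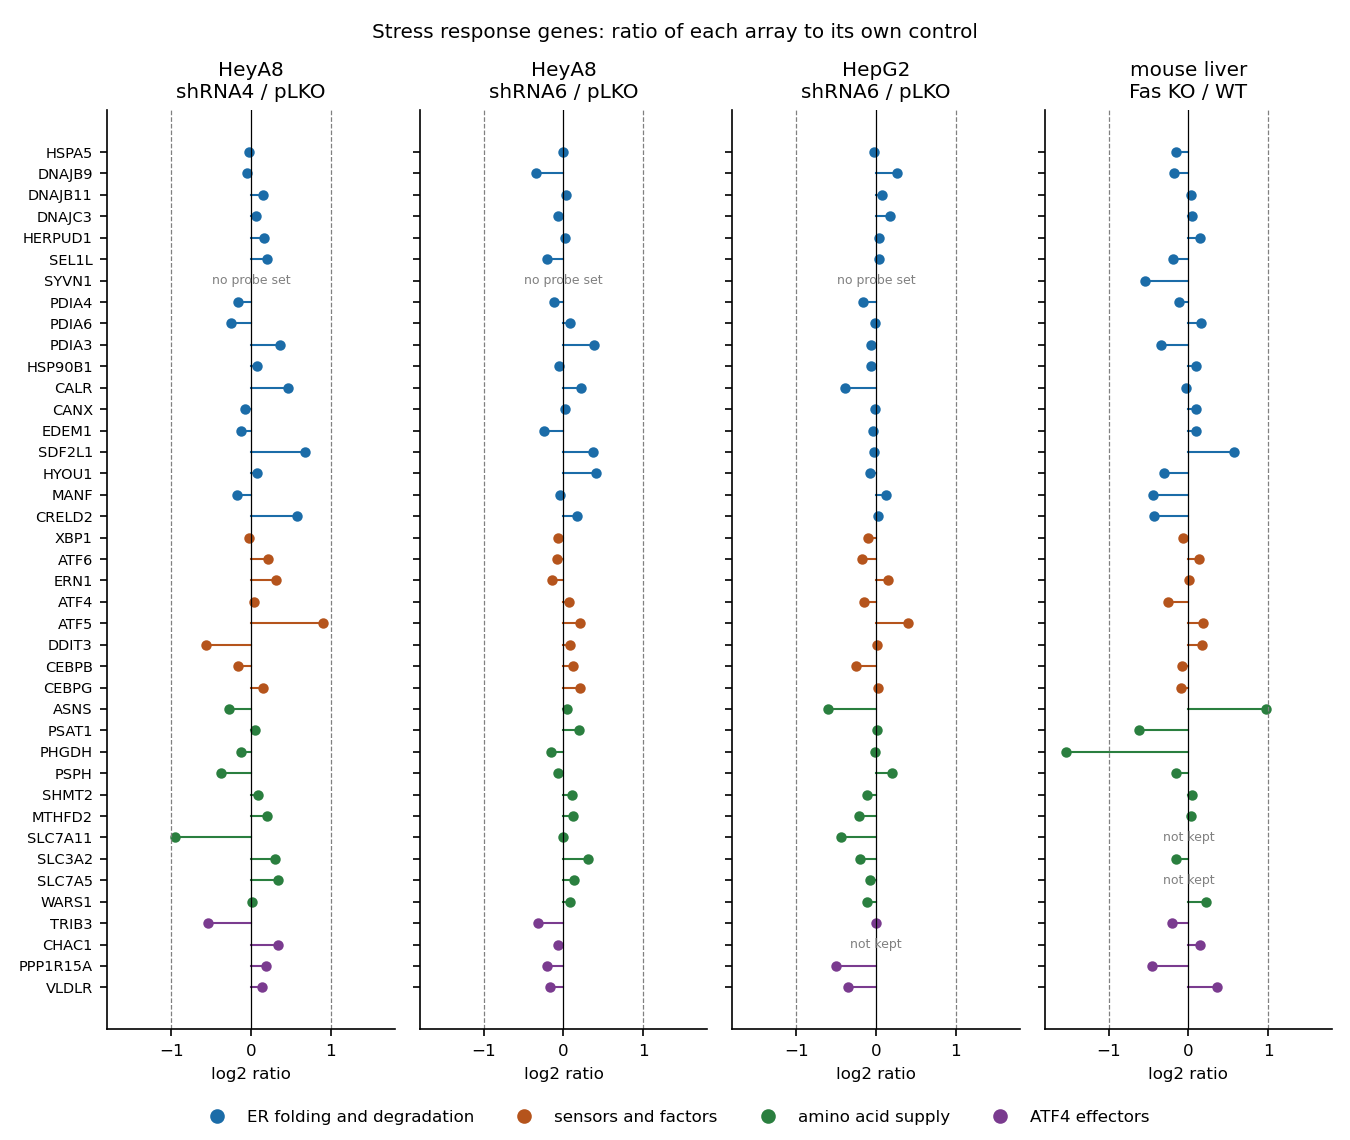
Log2 ratio of each of the 40 genes to its own control in the 4 comparisons, with the gene down the page, the ratio across it and dashed lines at 2-fold. Points sit close to 0 in the human comparisons, and a single point, PHGDH in mouse liver at -1.53, lies outside the dashed lines.

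The sensors and transcription factors were also within 2-fold of their controls in each human comparison. XBP1, the factor made by IRE1 splicing, had signals of 6991 with shRNA6 in HepG2 cells, against 7499 in the control, and 2080 and 2025 with shRNA4 and shRNA6 in HeyA8 cells, against 2117 in the control. Each knockdown array was the lower, by log2 ratios of -0.10, -0.03 and -0.06, though a dimmer probe set gave 0.46 in HepG2 cells. The probe sets were not matched to the spliced segment, so spliced and unspliced XBP1 were not told apart. ATF4 had 15138 with shRNA6 in HepG2 cells, against 16782 in the control, and 17859 and 18165 with shRNA4 and shRNA6 in HeyA8 cells, against 17362 in the control, log2 ratios of -0.15, 0.04 and 0.07.

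DDIT3, which encodes the stress factor CHOP, had 178 with shRNA4 and 286 with shRNA6 in HeyA8 cells, against 269 in the control. It was lower with shRNA4 alone, at a log2 ratio of -0.56 against 0.08 with shRNA6. In HepG2 cells DDIT3 was level, at 579 with shRNA6 and 575 in the control. ATF5, a factor translated under the same control as ATF4, had 646 with shRNA4 and 396 with shRNA6 in HeyA8 cells, against 340 in the control, and 488 with shRNA6 in HepG2 cells, against 366 in the control. All 3 knockdown arrays were higher for ATF5, by log2 ratios of 0.90, 0.21 and 0.40, but its other probe sets gave 0.49 with shRNA4, -0.25 with shRNA6 in HeyA8 cells and between -0.92 and 0.62 in HepG2 cells. ATF6 was at 0.21, -0.08 and -0.17, ERN1 at 0.32, -0.15 and 0.15, CEBPB at -0.16, 0.12 and -0.25 and CEBPG, a partner of ATF4, at 0.15, 0.21 and 0.03 with shRNA4 and shRNA6 in HeyA8 cells and shRNA6 in HepG2 cells. In the same order, other ATF6 probe sets gave between -0.06 and 0.62, between 0.01 and 0.56 and between -0.39 and 0.20. Other ERN1 probe sets gave between -0.02 and 0.36, between -0.52 and -0.02 and between -0.61 and 0.25.

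The amino acid genes, which ATF4 drives, gave medians of 0.03 with shRNA4 and 0.09 with shRNA6 in HeyA8 cells and -0.11 in HepG2 cells. The median with shRNA4 turned to -0.03 with the mean of all probe sets. In HepG2 cells 8 of 10 were below 0, where 6291 of 12167 genes kept and 4134 of 7775 bright genes were. The lowest in HepG2 was ASNS, which makes asparagine and is a standard ATF4 target with the element shown above. Its signal was 4066 with shRNA6 in HepG2 cells, against 6165 in the control, which is -0.60 in log2. In HeyA8 cells ASNS had 2722 with shRNA4 and 3401 with shRNA6, against 3296 in the control, so it was below the control with 1 hairpin and level with the other, at log2 ratios of -0.27 and 0.05.

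SLC7A11, the cystine transporter, had 1130 with shRNA4 and 2178 with shRNA6 in HeyA8 cells, against 2190 in the control. Only the shRNA4 array was low, at a log2 ratio of -0.95 against -0.01 with shRNA6. The difference was carried by the brighter of its probe sets, since another had 392 with shRNA4, against 995 in the control (-1.32), while the dimmest gave -0.12. In HepG2 cells SLC7A11 had 2149 with shRNA6 and 2919 in the control (-0.44).

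In the probe sets that represent them, the serine synthesis genes PHGDH, PSAT1 and PSPH lay between -0.37 and 0.20 in the human comparisons. The mitochondrial folate genes SHMT2 and MTHFD2 lay between -0.22 and 0.20 in theirs. Other PSPH probe sets gave 0.36 and 0.65 in HepG2 cells, and another SHMT2 probe set gave 0.31 with shRNA4 in HeyA8 cells. SLC3A2 and SLC7A5, which together form a transporter of large neutral amino acids, were at 0.30 and 0.34 with shRNA4 and at 0.31 and 0.13 with shRNA6 in HeyA8 cells, and at -0.20 and -0.08 in HepG2 cells. WARS1, the tryptophanyl-tRNA synthetase, lay between -0.12 and 0.08, while its other probe set gave -0.33 and -0.25 with shRNA4 and shRNA6 in HeyA8 cells.

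Of the ATF4 effectors, TRIB3, a pseudokinase that binds ATF4 and CHOP, had 1086 with shRNA4 and 1262 with shRNA6 in HeyA8 cells, against 1580 in the control, and 6966 with shRNA6 in HepG2 cells, against 6992 in the control. Both HeyA8 hairpin arrays were lower than the control they share, by log2 ratios of -0.54 and -0.32, and HepG2 was level. CHAC1, which degrades glutathione, had 196 and 144 with shRNA4 and shRNA6 in HeyA8 cells, against 152 in the control. Its HepG2 signals, 8.64 with shRNA6 and 6.07 in the control, were far below the array medians, and it was not kept there. PPP1R15A (GADD34), which guides the phosphatase that reverses eIF2 alpha phosphorylation, and VLDLR, a lipoprotein receptor raised by ATF4, were at 0.18 and 0.14 with shRNA4, at -0.20 and -0.17 with shRNA6 in HeyA8 cells and at -0.50 and -0.35 in HepG2 cells, where the other PPP1R15A probe set gave 0.30.

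**Figure D2:**
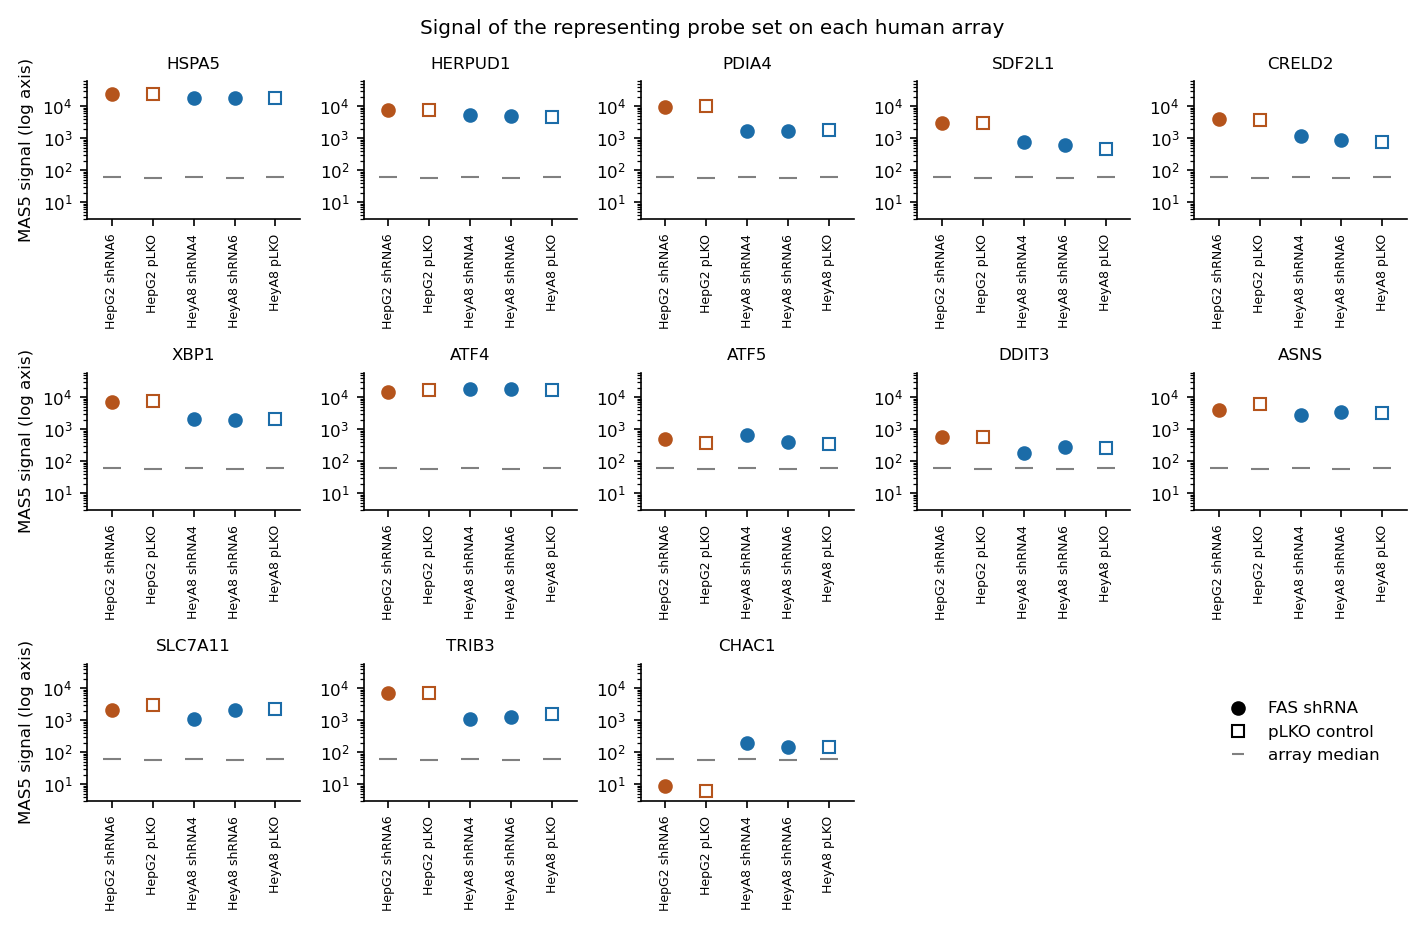
MAS5 signal (log axis) of 13 genes on each of the 5 human arrays, with filled circles for FAS shRNA, open squares for the pLKO control and grey bars for the median of each array. The knockdown arrays lie beside their own control in most panels, while HepG2 and HeyA8 lie apart for PDIA4, SDF2L1, CRELD2, XBP1, TRIB3 and CHAC1.

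By count, 0 of 39 genes were 2-fold or more from the control with shRNA4 in HeyA8 cells, where 4.76% of all genes kept were. With shRNA6 in HeyA8 cells 0 of 39 were, beside 4.22% of all genes kept, and in HepG2 cells 0 of 38, beside 5.22%. These genes are mostly bright, and among bright genes the same shares were 0.730%, 0.393% and 0.887%, so a count of 0 among 34, 34 and 36 bright members is near the background. At 1.5-fold the counts were 3 with shRNA4 (ATF5 and SDF2L1 higher, SLC7A11 lower), beside 12.9% of all genes kept and 4.47% of bright ones, 0 with shRNA6 in HeyA8 cells, beside 10.9% and 2.24%, and 1 in HepG2 cells (ASNS lower), beside 12.6% and 3.49%.

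**Figure D3:**
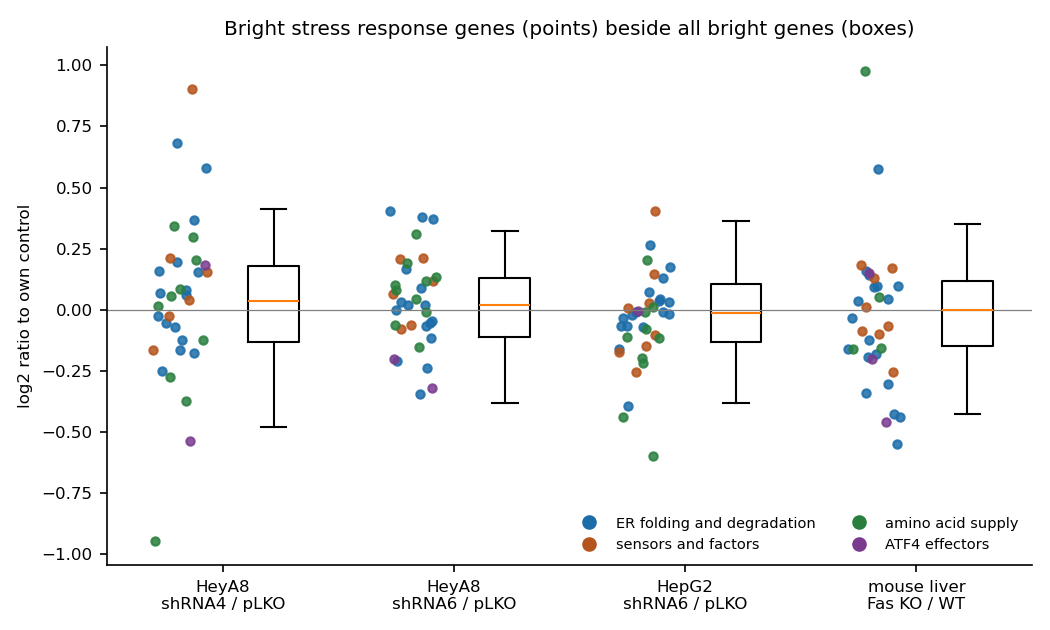
Log2 ratios of the bright stress response genes (points, coloured by role) beside the same over all bright genes in each comparison. Boxes show the median and the 25th to 75th percentile, and whiskers the 5th to 95th percentile, which run from -0.48 to 0.41 with shRNA4, -0.38 to 0.32 with shRNA6 in HeyA8, -0.38 to 0.36 in HepG2 and -0.43 to 0.35 in mouse liver.

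For these genes the HeyA8 hairpin arrays lay no closer to each other than to their control. The median absolute log2 difference over the 39 genes was 0.21 between the shRNA4 and shRNA6 arrays, and 0.18 for shRNA4 and 0.12 for shRNA6 against the control. Over all genes kept the hairpins differed by 0.19 and over bright genes by 0.15. Against the control the same values were 0.20 and 0.16 for shRNA4 and 0.16 and 0.12 for shRNA6. DDIT3, ATF5 and SLC7A11 differed by at least 1.5-fold between the hairpins and no member by 2-fold. Probe sets of 1 gene also differed: of the 23 members with several probe sets above the median, 10 with shRNA4, 12 with shRNA6 in HeyA8 cells and 13 in HepG2 cells had probe sets of both signs.

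Limma on the 5 human arrays, with cell line and knockdown as terms, called none of the 39 genes for the effect of knockdown common to both lines, at an adjusted p under 0.05. It called 0 of 13936 genes in all (0%), and 568 had an unadjusted p below 0.05, among them 0 of the 39. FAS itself did not pass, with a log2 effect of -0.93 ± 0.17 (SE), an unadjusted p of 0.000553 in this fit by limma and an adjusted p of 0.991, so a missing call in this fit does not show that a gene was level. The 95% interval of the common effect lay within 2-fold for 36 of the 39 genes and for 17 of 17 ER folding genes, and within 1.5-fold for 30 and 16. Over all 13936 genes it lay within 2-fold for 9929 and within 1.5-fold for 6789. Of the 39 genes 37 were bright, beside 8928 of all genes, and the part of signal level in these counts was not tested. For HSPA5 it ran from -0.18 to 0.15, for XBP1 from -0.28 to 0.14 and for ATF4 from -0.22 to 0.16.

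The largest common effects belonged to ATF5 at 0.49 ± 0.23 (SE, interval -0.03 to 1.02), SLC7A11 at -0.46 ± 0.24 (interval -1.02 to 0.10) and ASNS at -0.32 ± 0.14 (interval -0.66 to 0.01), with a limma adjusted p of 0.991 each. A fit with an interaction term tested whether the knockdown effect differed between HepG2 and HeyA8 and called 0 of 39 genes, with the lowest limma adjusted p at 0.999 and 0 of 13936 genes in all. There 613 genes and 0 members had an unadjusted p below 0.05, and 22 of the 39 intervals lay within 2-fold, beside 5173 of 13936 over all genes.

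In mouse liver the ER folding genes had a median log2 ratio of -0.08, knockout over wild type (0.01 with arrays scaled to equal medians), beside -0.02 over all genes kept, and 0 of 18 were 2-fold from wild type. Hspa5 had 17187 in knockout liver and 19198 in wild-type liver, and its probe sets gave between -0.39 and -0.16. Herpud1 had 17224 in knockout liver and 15610 in wild-type liver. Sdf2l1 was the highest, at 1660 in knockout liver and 1107 in wild-type liver, a log2 ratio of 0.58. Syvn1, the ubiquitin ligase of ER degradation, was the lowest, at 1571 in knockout liver and 2310 in wild-type liver (-0.55), followed by Manf at -0.44, Creld2 at -0.43, Pdia3 at -0.34 and Hyou1 at -0.30, with another Hyou1 probe set at -0.70. Creld2 had 1964 in knockout liver and 2645 in wild-type liver, while Pdia4 had 3047 in knockout liver and 3318 in wild-type liver.

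In the probe sets that represent them, the mouse factors lay between -0.25 and 0.18. Xbp1 had 15513 in knockout liver and 16222 in wild-type liver, and Atf4 2659 in knockout liver and 3176 in wild-type liver. Ddit3 had 402 in knockout liver and 354 in wild-type liver, and Atf5 3612 in knockout liver and 3180 in wild-type liver. Ern1 was level at 0.01, with another probe set at -0.83. Probe sets above the median gave between 0.13 and 0.49 for Atf6 and between -0.33 and 0.48 for Cebpg. Trib3 had 387 in knockout liver and 447 in wild-type liver, and Chac1 748 in knockout liver and 672 in wild-type liver.

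The widest ratios in mouse liver were those of amino acid genes, in both directions. Asns had 822 in knockout liver and 407 in wild-type liver, a log2 ratio of 0.98, and its other probe set 513 in knockout liver and 164 in wild-type liver, a log2 ratio of 1.53. Phgdh, the first enzyme of serine synthesis, had 59.3 in knockout liver, against 210 in wild-type liver (-1.53), and its other probe set gave -1.16. Psat1, the next enzyme, had 78.4 in knockout liver and 132 in wild-type liver (-0.63), and its other probe set gave -0.99. Psph, the last enzyme of that path, had 573 in knockout liver and 641 in wild-type liver (-0.16). Shmt2 and Mthfd2 were at 0.05 and 0.04, Slc3a2 at -0.16 and Wars at 0.22. Another Shmt2 probe set gave -0.98 and another Wars probe set -0.42. Asns was thus higher and Phgdh and Psat1 lower in the knockout by each probe set above the median, but Phgdh and Psat1 were dim, below the 75th percentile on both arrays, and each value is a single array.

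Phgdh was the only member 2-fold lower in the knockout, 1 of 38 kept, where 2.57% of all genes kept were. Asns missed the 2-fold limit, so 0 of 38 were 2-fold higher, where 1.77% of all genes kept were, and it passed when arrays were scaled to equal medians, with quantile normalization, with a smaller pseudocount or with the mean of its probe sets. At 1.5-fold 3 of 38 members passed (Asns, Phgdh and Psat1), beside 12.5% of all genes kept, and 1 of 33 bright members (Asns), beside 3.61% of bright genes. These shares are near or below the background. Vldlr had 138 in knockout liver and 104 in wild-type liver (0.36), and its 4 probe sets above the median gave between 0.36 and 0.99. Ppp1r15a was at -0.46. Slc7a11, with 34.5 in knockout liver and 39.0 in wild-type liver, and Slc7a5, with 38.0 in knockout liver and 13.5 in wild-type liver, were below the array medians and were not kept.

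**Figure D4:**
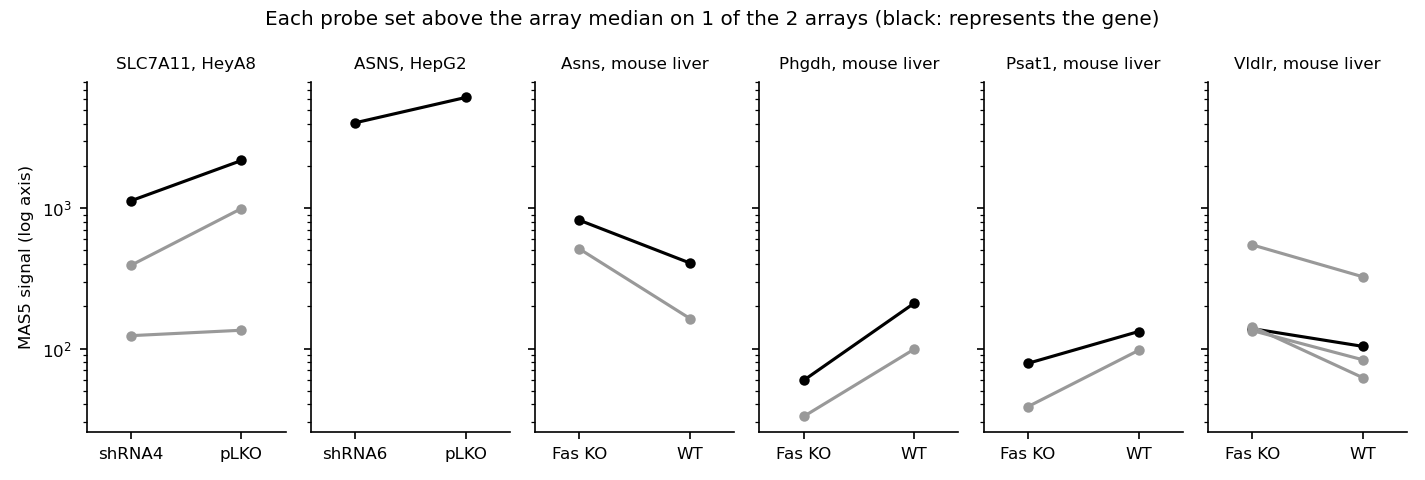
MAS5 signal (log axis) of each probe set of 5 genes kept in a comparison, on the knockdown or knockout array (left) and its control (right), with the probe set that represents the gene in black. Both Asns probe sets are higher and both Phgdh and both Psat1 probe sets lower in Fas knockout liver, and 1 of the 3 SLC7A11 probe sets is nearly level.

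The cell lines differed far more than the knockdown arrays did. Of the 39 genes 26 (66.7%) were higher and 6 (15.4%) lower in HepG2 than in HeyA8 cells, by the cell line term of the limma fit at an adjusted p under 0.05, with 2 HepG2 and 3 HeyA8 arrays. Of all 13936 genes 30.0% were higher and 28.0% lower, and of bright genes 36.7% and 34.3%. The share higher was thus above that of all genes and the share lower below it. Among genes above the array median in both lines, which leaves out CHAC1, 26 of 38 members were higher and 5 lower, beside 31.0% and 26.7% of 10804 genes. The difference is one of levels between the lines, and culture, origin and cell line cannot be told apart. Hepatocyte markers moved with it, at summed signals of 95188 and 96770 on the HepG2 arrays and between 70.5 and 165 on the HeyA8 arrays, and their part in the result was not tested.

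ER folding and degradation genes were higher in HepG2 cells at 16 of 17 measured, with a median log2 difference of 0.62 beside 0.05 over all genes. The most distant was PDIA4, with 9487 and 10592 on the HepG2 arrays, against 1644, 1705 and 1846 on the HeyA8 arrays, a log2 difference of 2.50 ± 0.09 (SE, limma adjusted p = 2.55e-07). SDF2L1 followed at 2.40 ± 0.17 (limma adjusted p = 8.05e-06), with 3048 and 3095 on the HepG2 arrays and at most 747 on the HeyA8 arrays, and CRELD2 at 2.09 ± 0.15 (limma adjusted p = 1.11e-05). DNAJB9, HYOU1 and PDIA3 were higher by 1.88, 1.74 and 1.59. CALR was higher by 1.0 and PDIA6 by 0.98.

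The other ER genes called differed by less. HSP90B1 was higher by 0.60, HERPUD1 by 0.62, MANF by 0.56, DNAJC3 by 0.55, DNAJB11 by 0.48, SEL1L by 0.41, HSPA5 by 0.38 and CANX by 0.34. HSPA5 had 24372 and 24688 on the HepG2 arrays and between 18551 and 18868 on the HeyA8 arrays, but its other probe set was lower in HepG2 by 0.28, and over the mean of both the difference was 0.03 (limma adjusted p = 0.767). CANX turned to -0.12 (limma adjusted p = 0.457) when another of its probe sets represented it. EDEM1 was the ER gene not called, at -0.16 ± 0.12 (SE, interval -0.44 to 0.13, limma adjusted p = 0.306). All 7 genes with an ER stress element were among those higher in HepG2, as were nearly all ER genes without one.

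The factors split. XBP1 was higher in HepG2 cells by 1.79 ± 0.09 (SE, limma adjusted p = 1.40e-06), with 6991 and 7499 on the HepG2 arrays, against 2025 to 2117 on the HeyA8 arrays. DDIT3 was higher by 1.20, CEBPG by 0.94 and ERN1 by 0.72. ATF6 was lower, at -1.53 ± 0.14 (SE, limma adjusted p = 4.53e-05), with 463 and 523 on the HepG2 arrays and between 1324 and 1622 on the HeyA8 arrays, and its other probe sets gave between -1.19 and -0.32. CEBPB was lower, at -0.38. ATF4 mRNA, at 15138 and 16782 on the HepG2 arrays and between 17362 and 18165 on the HeyA8 arrays, was not called at -0.16 (interval -0.35 to 0.03), and neither was ATF5 at 0.01 (interval -0.51 to 0.54).

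Amino acid genes were higher in HepG2 at 5 of 10 and lower at 1. PSPH was higher by 1.35 in the probe set that represents it, while its other probe sets gave -0.30 and -0.82, so the direction for PSPH rests on the choice of probe set. SLC7A5 was higher by 1.20, SLC3A2 by 0.64, ASNS by 0.62 and PSAT1 by 0.54, and MTHFD2 was lower at -0.29. SLC7A11, PHGDH, SHMT2 and WARS1 were not called, at 0.43, 0.22, -0.19 and -0.21.

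The ATF4 effectors differed between the lines in both directions. TRIB3 was higher in HepG2 cells by 2.38 ± 0.13 (SE, limma adjusted p = 2.20e-06), with 6966 and 6992 on the HepG2 arrays and between 1086 and 1580 on the HeyA8 arrays. CHAC1 had 6.07 and 8.64 on the HepG2 arrays, below their array medians of 58.5 and 63.4, and between 144 and 196 on the HeyA8 arrays. CHAC1 was kept only through the HeyA8 arrays, so its HepG2 level is a bound and its call in the fit carries no weight. With HepG2 taken at its array medians CHAC1 was at least 2.67-fold lower in HepG2 cells. VLDLR and PPP1R15A were lower at -1.59 and -1.58, with 88.3 and 116 for VLDLR on the HepG2 arrays, against 289 to 361 on the HeyA8 arrays. TRIB3 and DDIT3 were thus higher in the line in which VLDLR and PPP1R15A were lower.

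**Figure D5:**
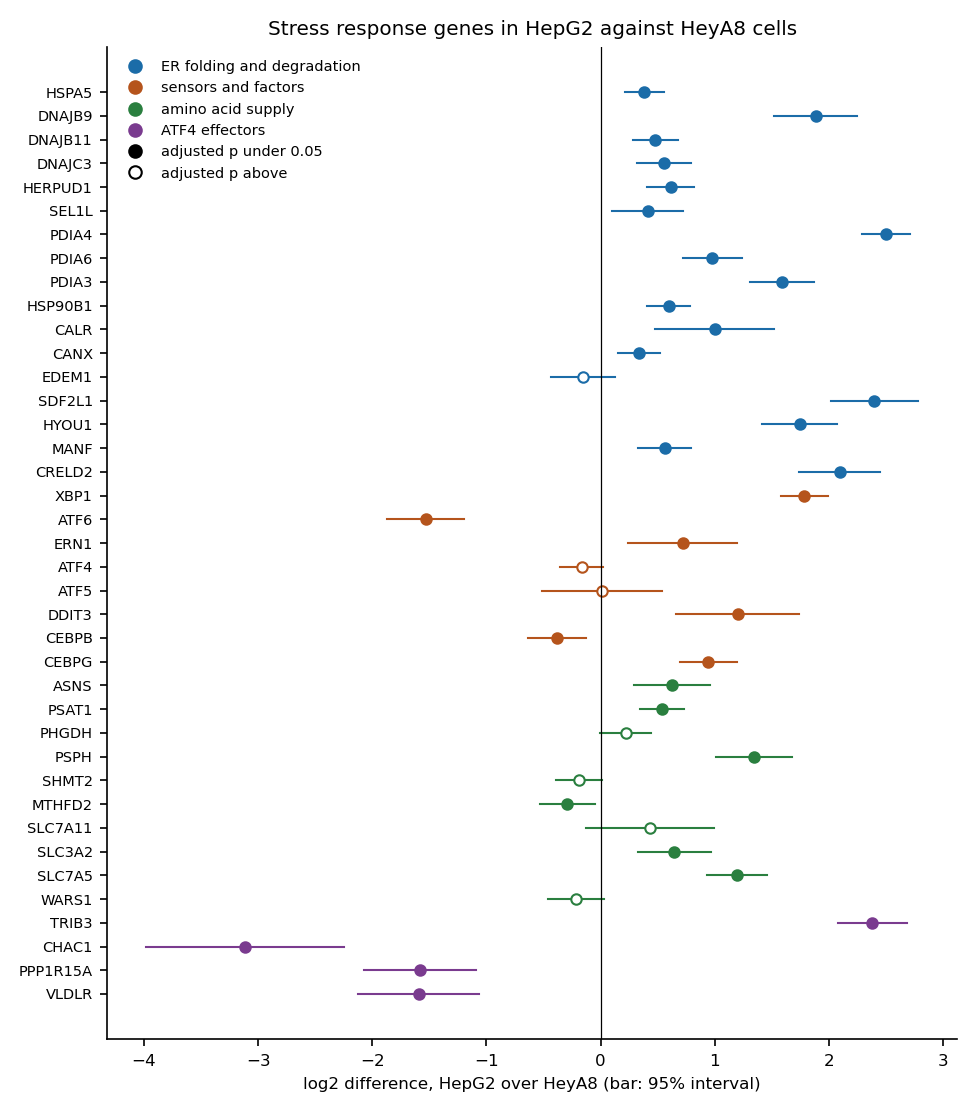
Log2 difference of 39 genes, HepG2 over HeyA8, from the limma fit of 5 human arrays, with the gene down the page and bars for the 95% interval. Filled points passed an adjusted p of 0.05, and 16 of the 17 ER folding and degradation genes (blue) lie to the right of 0 and passed. The point of CHAC1 rests on HepG2 signals below the array medians.

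The 2 HepG2 arrays lay above all HeyA8 arrays for 27 of the 39 genes and below them for 9, and the lines overlapped for EDEM1, ATF5 and SLC7A11. Such separation was not counted over all genes, of which 30.0% were called higher and 28.0% lower. These counts therefore do not set the members apart from other genes. Of the 32 genes called, 19 kept the call under every alternative in which they were tested, and 13 lost it under at least 1. Among the 19, CHAC1 and VLDLR were not bright, so the fit to bright genes alone did not include them. The call of CHAC1 carries no weight, for the reason given above. Without the HepG2 shRNA6 array the calls of SEL1L, CANX, DNAJC3, MANF, DDIT3, ERN1, MTHFD2 and CEBPB were lost, with limma adjusted p between 0.0676 for MANF and 0.658 for MTHFD2. Without either control array the calls of SEL1L, CALR, ERN1, ASNS and SLC3A2 were lost, with ASNS at 0.42 and CALR at 0.68. Without the HeyA8 shRNA6 array SEL1L, MTHFD2 and CEBPB were lost and SLC7A11 was called, at 0.67, and without the HeyA8 shRNA4 array MTHFD2 was lost, at -0.24.

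Other genes of the same pathways were counted from lists of 40 each. Of the further ER stress genes kept, 1 of 34 was 2-fold higher with shRNA4 and 0 of 33 with shRNA6 in HeyA8 cells, 1 of 36 was higher in HepG2 cells, and 0 of 37 in mouse liver, beside 2.37%, 2.02%, 2.65% and 1.77% of all genes kept. Of the further ATF4 pathway genes, 2 of 33 were 2-fold lower with shRNA4, 1 of 33 with shRNA6 in HeyA8 cells, 0 of 34 in HepG2 cells and 1 of 37 in mouse liver, beside 2.38%, 2.21%, 2.56% and 2.57% of all genes kept, and 2 of 37 were higher in mouse liver. Those in HeyA8 cells were bright, 2 of 29 with shRNA4 and 1 of 29 with shRNA6, beside 0.521% and 0.315% of bright genes, and were KLHL24 and DDIT4. The lists were made with earlier results of these data known, so these counts describe the lists and do not test the pathway. KLHL24, a ubiquitin ligase adaptor, had 202 with shRNA4 and 278 with shRNA6, against 601 in the HeyA8 control, log2 ratios of -1.52 and -1.08, and 160 with shRNA6 in HepG2 cells, against 115 in the control (0.44). A cross-hybridising probe set of KLHL24 gave 0.08 with shRNA4.

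DDIT4 (REDD1), an inhibitor of mTORC1 that several stresses induce, had 587 with shRNA4 and 911 with shRNA6 in HeyA8 cells, against 1665 in the control, log2 ratios of -1.48 and -0.86. In HepG2 cells it had 3011 with shRNA6, against 4127 in the control (-0.45). All knockdown arrays were the lower for DDIT4, those of HeyA8 against the control they share. The common effect was -0.86 ± 0.22 (SE) with a limma adjusted p of 0.991. Between the lines, 22 of 36 further ER stress genes were higher and 5 lower in HepG2 cells, and 17 and 13 of 34 further ATF4 pathway genes, beside the 30.0% and 28.0% of all genes.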

How the data were processed

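Total RNA was measured on 7 Affymetrix arrays, 5 of them human. The values deposited by the authors are intensity on a linear scale, from MAS5 per the submitters' processing notes. No version or setting of MAS5 is given in the sources used here. The 2% trimmed mean was near 500.1 on human and 500.0 on mouse arrays, so whole arrays had been scaled. Symbols came from the platform annotation, which can be old, and 41043 human probe sets matched RefSeq by gene identifier with 0 symbols differing. A gene was represented by its probe set of highest mean signal, a cross-hybridising one (_x_at) only where there was no other.

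The pseudocount was the 25th percentile of a table. Single comparisons were not tested and are counted by fold. limma 3.58.1 in R 4.3.3 fitted log2(signal + pseudocount) with a trended variance, 2 residual degrees of freedom (1 with the interaction) and Benjamini-Hochberg adjustment over all genes kept on at least 1 array. The fit was tested on simulated data. Other steps used Python 3.11.15 with matplotlib 3.10.9, numpy 2.4.6 and pandas 2.3.3.

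Members and lists were chosen with earlier results of these data known. All members are named. Values on each array are given for HSPA5, XBP1, HERPUD1, ATF4, DDIT3, ASNS, TRIB3 and CHAC1, and for bright members 1.5-fold from a control or 4-fold between the lines, and further pathway genes are named where bright and 2-fold. Values on each array of PHGDH, PSAT1, SYVN1, VLDLR and other members were added after they were seen. Alternatives were other pseudocounts, normalizations, filters, probe set rules, fold limits and variance priors, a fit with no term for the line, and the omission of single arrays. No detection calls were used. For arrays, their number limits the precision.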

Additional observations from a re-analysis of the deposited data

How the results depend on the processing

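Of 158 recomputed counts of members 147 stayed within 1.5 times. Of 64 recomputed medians of the ER and amino acid genes 8 changed sign, all of them close to 0: beside those in the report, the amino acid medians turned to -0.00 with shRNA4 in HeyA8 cells by quantile normalization and to 0.02 in mouse liver with arrays scaled to equal medians. Counting only genes above the median in both lines was added after the data were seen. At 1.5-fold in place of 2-fold, 2 members were higher and 1 lower with shRNA4 in HeyA8 cells, 1 lower in HepG2 cells, and 1 higher and 2 lower in mouse liver. The mouse count of 0 higher became 1 (Asns) with the smaller pseudocount, with quantile normalization, with arrays scaled to equal medians and with the mean of probe sets. The mouse count of 1 lower became 0 with the filter at the 75th percentile and 0 at 3-fold. With arrays scaled to equal medians the ER median in HepG2 cells moved to -0.13, as the median of all genes there shifted by -0.11 and the ER genes stayed 0.00 from it to 2 decimals. Leaving out each human array gave between 20 and 26 members higher and between 4 and 6 lower in HepG2 than in HeyA8 cells, and 0 for the common effect. Of single values 557 counted as unchanged. Among them are members not called that stayed so, and untested ratios that shifted by less than a set spread. A call was lost in 35 and gained in 2. Phgdh in mouse liver moved to -1.07 with the larger pseudocount, and CANX between the lines reversed to -0.12 with _at probe sets first.

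No paired analysis was possible because the labels number no replicates, and each group held 1 array. The cell line term takes the place of a block, and without it 0 members were called. Leaving out an array was not possible in single comparisons, nor in the interaction fit, which would keep no residual degree of freedom. Signals near or under the array median, as for CHAC1 in HepG2 cells and Phgdh in mouse liver, limit the size of a ratio.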

Other observations

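The ATF4 element TGATGNAA was in the promoters of 15 of 33 further ATF4 pathway genes (45.5%), among them ATF3, FGF21, SLC7A1 and several tRNA synthetase genes, beside 2 of 7 amino acid members (28.6%) and 4.46% of all genes with a promoter. The ER stress element was in 2 of 35 further ER stress genes (5.71%), ERO1B and SERP1, and in 0 of the 33 further ATF4 pathway genes. These lists were drawn from knowledge of the pathways, with earlier results of these data known, so the counts describe the lists.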
